A study of Mus musculus with 36 samples.

Results

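Regulators of G protein signalling (RGS proteins) were followed at the RNA level in the anterior cingulate cortex (aCC) of mice: Rgs2, Rgs4, Rgs7, Rgs8, Rgs10, Rgs12, Rgs14, Rgs16 and Rgs17, 9 of the 52636 genes in the expression table. The 9 genes were selected by name and on earlier results from the same 36 libraries, in which their levels across the 4 groups had been seen. Their differences between groups are therefore given here as a description, and the p-values only place each gene among all genes tested. All 9 were above 0 in all 36 libraries and all 9 passed the filter on low values.

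The study asked how mice lacking 1 copy of Brd1, a chromatin reader gene, respond to an antidepressant. Punches 1 mm wide were taken from the right aCC of female C57BL/6NTac mice aged 8 to 11 weeks, either heterozygous for a targeted deletion of Brd1 (Brd1+/-; loxP sites had been placed around part of the coding exons) or wild type (WT) littermates, and mice of both genotypes were injected under the skin with saline as vehicle or with 10 mg/kg of the tricyclic antidepressant imipramine (IMN). With vehicle there were 8 WT and 9 Brd1+/- libraries, with IMN 10 WT and 9 Brd1+/- libraries, each from 1 mouse. All mice went through tail suspension, open field and forced swim tests before the brains were taken, so the vehicle mice had also been handled, injected and stressed. Each mouse was injected 1 hour before tail suspension and again, on the next test day, 1 hour before the other tests. Brains were collected 1 hour after the swim test.

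An activated receptor loads the alpha subunit of a G protein with GTP, and alpha and beta-gamma subunits then act on enzymes and channels such as adenylyl cyclases, phospholipase C and potassium channels. RGS proteins end that signal because they speed up the hydrolysis of GTP by the alpha subunit. In cortex they act downstream of serotonin, noradrenaline, dopamine, glutamate and opioid receptors, and the RNA of some of them, Rgs2 among them, is induced by neuronal activity.

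The expression unit was TPM, a measure of transcript abundance that divides reads by transcript length and by the total of the library, and differences are log2 fold changes on log2(TPM + 0.5). Values in all libraries summed to nearly the same total (999727.1 to 999889.0), so read depth cannot be seen in the table, and between 24685 and 25517 genes were above 0. Brd1 ranged from 17.9 to 31.9 TPM in the WT libraries and from 13.5 to 20.9 TPM in the Brd1+/- libraries. Over both treatments Brd1 was lower in Brd1+/- mice (log2 fold change -0.54, SE 0.067, limma adjusted p 2.83e-05). With vehicle alone its log2 fold change was -0.64 (limma adjusted p 0.0620), and under IMN alone -0.45 (limma adjusted p 0.882). Brd1 ranked 1st by p in both pairwise fits, yet neither fit called it. The paper, which used edgeR, reported Brd1 as significant after correction between the vehicle groups. A pair of libraries stood apart. WT vehicle replicate 1 had 2841 TPM summed over 10 oligodendrocyte genes, against a median of 421.3 TPM in its group, and Brd1+/- vehicle replicate 6 had 1522 TPM summed over 12 striatal genes, against a median of 233.6 TPM. All 11 cortical excitatory genes listed had a median of at least 1 TPM, with sums of 1632 to 3409 TPM. WT vehicle replicate 1 was not the library highest in oligodendrocyte genes: it ranked 3rd of 36, after WT IMN replicate 7 (3570 TPM) and Brd1+/- IMN replicate 6 (3445 TPM). Leaving out vehicle libraries alone is thus one-sided, and for the IMN comparisons of Rgs2 the 3 libraries highest in these genes were also left out together, an alternative chosen after seeing the data. In punches of tissue, fewer cells of a type and less RNA per cell cannot be told apart.

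In the GRCm38 annotation, 5 of the 9 genes and 11 of all 21 RGS family genes examined were on chromosome 1, several as neighbours. Rgs2 (ENSMUSG00000026360) lay at chr1:143999338-144004161 on the minus strand. It was followed without another protein-coding gene between them by Rgs13, Rgs1, Rgs21 and Rgs18, which were near 0 in these punches: their highest values in any library were 1.17, 0.320, 0 and 0.150 TPM. Rgs8 (chr1:153653025-153700323, plus strand) and Rgs16 (chr1:153740349-153745468, plus strand) were 40025 bases apart, and Rgs4 (chr1:169741477-169747642, minus strand) was 45663 bases from Rgs5. Neighbours did not vary together from punch to punch: after the group means were removed, Pearson r over the 36 libraries was -0.03 for Rgs8 with Rgs16 and -0.04 for Rgs5 with Rgs4, given as a description. Rgs7 (chr1:175059087-175492500), Rgs10 (chr7:128373621-128418758) and Rgs17 (chr10:5825663-5922400) are on the minus strand, and Rgs12 (chr5:34949445-35039644) and Rgs14 (chr13:55369732-55384687) on the plus strand. Rgs2, Rgs4, Rgs14 and Rgs17 overlap no other annotated gene, while Rgs7, Rgs8, Rgs10, Rgs12 and Rgs16 each overlap a non-coding transcript or one of unclear status, and the sources do not say whether strand was used in the quantification, so reads there could be shared.

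The bases before the start sites of Rgs2, the gene with the clearest difference under IMN, and of Rgs4, the most abundant member, are shown because cyclic AMP and activity-dependent factors bind short motifs there. The sequences are RefSeq promoter windows on GRCm38, read 5′ to 3′ on the gene's strand and cut where the GENCODE gene begins, and capitals mark matches to the motifs searched on both strands. The Rgs2 stretch is chr1:144004162-144004399 (minus strand, 238 bases) and the Rgs4 stretch is chr1:169747643-169747892 (minus strand, 250 bases).
Rgs2: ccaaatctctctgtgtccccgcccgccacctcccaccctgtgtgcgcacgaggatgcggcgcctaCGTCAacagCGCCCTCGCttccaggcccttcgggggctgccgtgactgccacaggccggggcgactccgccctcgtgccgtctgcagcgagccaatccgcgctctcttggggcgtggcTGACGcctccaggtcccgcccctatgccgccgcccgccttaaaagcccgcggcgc
Rgs4: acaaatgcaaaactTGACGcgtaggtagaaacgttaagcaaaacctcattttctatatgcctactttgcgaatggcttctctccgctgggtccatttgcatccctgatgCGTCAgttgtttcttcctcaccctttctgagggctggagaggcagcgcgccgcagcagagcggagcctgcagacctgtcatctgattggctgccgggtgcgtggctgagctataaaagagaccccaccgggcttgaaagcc
The motifs were the full cyclic AMP response element (CRE) TGACGTCA, its core TGACG (which the full element contains on both strands), AP-1 TGANTCA and EGR GCGNGGGCG. Rgs2 held the CRE core at 2 places, at positions -185 and -67 from the RefSeq start site, and 1 EGR match at position -176. Rgs4 held the CRE core at 2 places, at positions -236 and -141, each position being that of the first letter. Of 32851 windows of 250 bases, 17.8% held the CRE core, 4.7% the EGR motif, 6.75% AP-1 and 1.55% the full CRE. Among the 8 members with a window (11 windows in all), 4 genes held a CRE core (Rgs2, Rgs4, Rgs8 and Rgs12), 2 an AP-1 match (Rgs12 and Rgs17), 1 an EGR match (Rgs2) and none the full CRE. A match is a match of letters only and no binding was measured.

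Rgs4, which acts on Gi/o and Gq alpha subunits and is a well known transcript of cortical pyramidal neurons, was by far the most abundant of the 9. It had a mean of 351.6 TPM ± 61.9 (SD, n = 36) and made up 41.5% of the summed TPM of the 21 family genes (32.0% to 49.3% per library). Rgs7, which works in a complex with the G protein beta subunit Gnb5, followed at 92.9 TPM ± 11.6 (SD, n = 36). Rgs4 exceeded Rgs7, and Rgs7 exceeded Rgs8, in 36 of 36 libraries. Below them the order was less firm. Rgs8 (41.8 TPM ± 11.3) was above Rgs2 (32.5 TPM ± 6.06) in 28 of 36 libraries. Rgs2 was above Rgs14 (30.1 TPM ± 8.14) in 23 and Rgs14 above Rgs10 (29.1 TPM ± 6.49) in 19 of 36, and the means of these neighbours differed by less than their SDs. Rgs10 was above Rgs17 (25.0 TPM ± 4.59) and Rgs17 above Rgs12 (19.9 TPM ± 5.29) in 27 libraries each. Rgs16 was the lowest at 10.0 TPM ± 3.58 (SD, n = 36), below Rgs12 in 33 of 36 libraries, and it varied most from library to library, with a coefficient of variation of 35.6% against 12.4% for Rgs7.

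The 9 genes together made up 75.1% of the family's summed TPM (65.5% to 80.7% per library). Of the 12 other family genes, Rgs11, Rgs5, Rgs20 and Rgs6 had medians of 49.3, 40.8, 39.5 and 34.1 TPM over the 36 libraries, as high as most of the 9. Rgs9, a gene of striatal neurons, had a median of 8.47 TPM and reached 95.7 TPM in Brd1+/- vehicle replicate 6.

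Rgs2, a small regulator that acts mainly on Gq alpha subunits, was lower after IMN. In WT vehicle mice Rgs2 ranged from 30.9 to 44.8 TPM with a median of 37.6 TPM, and in WT IMN mice from 21.8 to 35.8 TPM with a median of 26.5 TPM. In Brd1+/- vehicle mice it ranged from 29.1 to 41.2 TPM with a median of 36.5 TPM, and in Brd1+/- IMN mice from 22.7 to 42.6 TPM with a median of 28.8 TPM. The groups overlapped in both genotypes, but 8 of 10 WT IMN libraries lay below the lowest WT vehicle library and all 10 lay below the WT vehicle mean. In Brd1+/- mice 5 of 9 IMN libraries lay below the lowest vehicle library, 8 of 9 lay below the vehicle mean, and 1 IMN library, at 42.6 TPM, lay above all vehicle libraries.

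**Figure D1:**
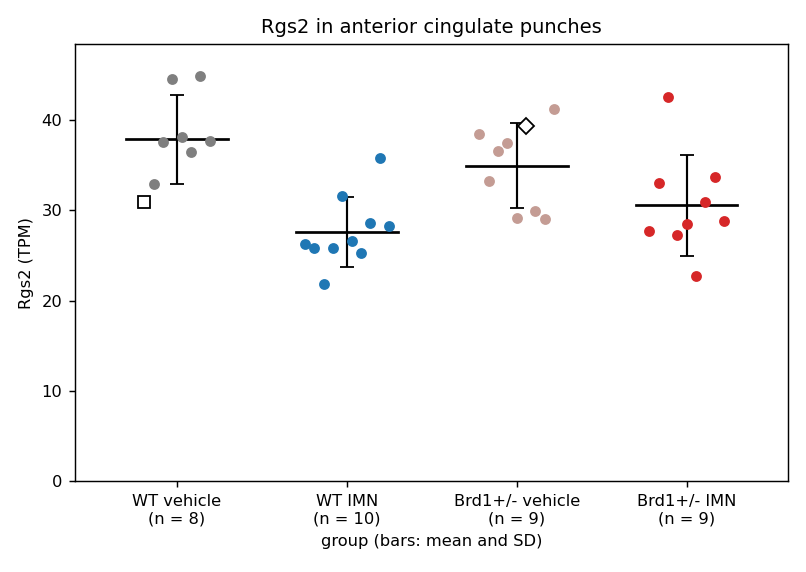
Rgs2 in TPM in each of the 36 libraries by group, with bars for the mean and SD, where the open square is WT vehicle replicate 1 and the open diamond Brd1+/- vehicle replicate 6. WT IMN libraries sit between 21.8 and 35.8 TPM, mostly below the WT vehicle libraries, which start at 30.9 TPM, while the Brd1+/- IMN libraries reach up to 42.6 TPM.

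Over both genotypes, Rgs2 fell with IMN by 0.32 on the log2 scale (SE 0.070, 95% interval -0.47 to -0.18), to 79.9% of the vehicle level. With limma and Benjamini-Hochberg adjustment over 25572 genes, its adjusted p was 0.0326 and it ranked 39th by p. It was the 1 member of 9 past adjusted p 0.05, and 70 genes were past it in all (0.274% of those tested). Since the gene was selected on this contrast, nothing is read from that count. The call held without WT vehicle replicate 1 (adjusted p 0.0162), without Brd1+/- vehicle replicate 6 (0.0456), without both (0.0238) and without the 3 libraries highest in oligodendrocyte genes (0.0450). It was lost with the replicate number as a block (log2 fold change -0.33, limma adjusted p 0.0755), although no label says that the number pairs the mice. All these fits reuse libraries on which the gene was selected, so they are no independent support.

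Within WT mice the log2 fold change of Rgs2 was -0.45 (SE 0.088, 95% interval -0.63 to -0.27), the fifth smallest p of all genes (unadjusted p 5.96e-05), though its limma adjusted p was 0.242, and 0 of 25572 genes (0%) had an adjusted p under 0.05 while 1687 (6.6%) had an unadjusted one. Without WT vehicle replicate 1, the lowest Rgs2 value of its group, the difference was -0.49 and its limma adjusted p 0.0462. Without the 3 libraries highest in oligodendrocyte genes, which include that one and 1 WT IMN library, it was -0.48 with a limma adjusted p of 0.0749. Within Brd1+/- mice the log2 fold change was -0.20 (SE 0.10, 95% interval -0.41 to 0.01, limma adjusted p 0.920), and it was -0.15 without the Brd1+/- IMN library highest in oligodendrocyte genes. The difference between these effects, the genotype by IMN interaction, was 0.25 (SE 0.14, 95% interval -0.02 to 0.53, unadjusted p 0.0718 and adjusted p 1.00 by limma), so a different response of Rgs2 in the 2 genotypes was not shown. Without both libraries that difference was 0.32, with an unadjusted p of 0.0294 and an adjusted p of 0.992 by limma. Between genotypes, Rgs2 differed by -0.12 (95% interval -0.31 to 0.08) with vehicle and by 0.14 (-0.07 to 0.34) under IMN.

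Immediate-early genes, which neurons induce within minutes of activity, had lower medians in both IMN groups. All 13 of 13 listed genes had a median of at least 1 TPM and none was at 0. Their summed TPM ranged from 873.2 to 1759 TPM in WT vehicle, 1146 to 1844 TPM in Brd1+/- vehicle, 801.4 to 1424 TPM in WT IMN and 560.4 to 1287 TPM in Brd1+/- IMN mice, with medians of 1576, 1405, 964.1 and 961.4 TPM. The summed TPM of 10 oligodendrocyte genes, all 10 with a median of at least 1 TPM, ranged from 191.9 to 2841 TPM in WT vehicle, 240.2 to 1800 TPM in Brd1+/- vehicle, 233.1 to 3570 TPM in WT IMN and 229.7 to 3445 TPM in Brd1+/- IMN mice, with medians of 421.3, 603.0, 984.5 and 750.4 TPM. The lowest immediate-early sum and the highest oligodendrocyte sum of each vehicle group were those of WT vehicle replicate 1 and Brd1+/- vehicle replicate 6. The part of either list in the lower Rgs2 was not tested.

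The other regulators close in structure to Rgs2, namely Rgs4, Rgs8 and Rgs16, are also small proteins built around the RGS domain. Rgs4 ranged from 234.9 to 486.9 TPM (median 386.0) in WT vehicle, 217.9 to 412.0 TPM (median 333.5) in WT IMN, 295.4 to 464.3 TPM (median 382.2) in Brd1+/- vehicle and 259.8 to 402.1 TPM (median 337.8) in Brd1+/- IMN mice. All groups overlapped, and 14 of the 19 IMN libraries lay below the vehicle mean. The log2 fold change of Rgs4 with IMN over both genotypes was -0.15 (SE 0.084, 95% interval -0.32 to 0.02, limma adjusted p 0.604). Both libraries that stood apart were the lowest Rgs4 values of their vehicle groups, at 234.9 and 295.4 TPM. Without both, the value was -0.22 (SE 0.078), with an unadjusted p of 0.0088 and an adjusted p of 0.236 by limma. In that fit 11.6% of all genes had an unadjusted p under 0.05. It is one-sided, because only vehicle libraries were left out. The lowest Rgs4 value of all, 217.9 TPM, was kept. It was that of WT IMN replicate 7, the library highest in oligodendrocyte genes.

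Rgs8 ranged from 29.5 to 64.9 TPM (median 48.99) in WT vehicle, 25.1 to 55.1 TPM (median 36.4) in WT IMN, 28.2 to 58.7 TPM (median 45.9) in Brd1+/- vehicle and 15.5 to 56.0 TPM (median 41.6) in Brd1+/- IMN mice. These groups overlapped along most of their ranges. Its log2 fold change with IMN over both genotypes was -0.23 (SE 0.13, 95% interval -0.51 to 0.04, limma adjusted p 0.634), -0.27 without both libraries that stood apart and -0.17 without the 3 highest in oligodendrocyte genes. Rgs16 ranged from 5.59 to 19.1 TPM over all libraries, with group means between 9.48 and 10.2 TPM. Its log2 fold change with IMN over both genotypes was 0.04 (95% interval -0.27 to 0.35). A fall of the size seen for Rgs2 lay just outside that interval, and a rise of the same size lay inside it.

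Rgs7 was the steadiest gene of the 9, with group means between 91.4 and 94.4 TPM. Its log2 fold changes were between -0.03 and 0.03 in the 7 comparisons. The 95% interval for IMN over both genotypes was -0.15 to 0.10. Rgs17, which prefers Gi/o and Gz alpha subunits, had group means between 24.3 and 25.4 TPM and an interval of -0.15 to 0.20 for the same comparison.

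Rgs10, Rgs12 and Rgs14 form a subfamily, in which Rgs12 and Rgs14 are long proteins that also bind Ras-like GTPases and the inactive alpha subunit. Rgs12 ranged from 14.4 to 33.4 TPM (median 19.3) in WT vehicle, 11.98 to 22.4 TPM (median 17.1) in Brd1+/- vehicle, 13.2 to 29.5 TPM (median 17.8) in WT IMN and 11.4 to 28.7 TPM (median 20.4) in Brd1+/- IMN mice. The Brd1+/- vehicle libraries were the lowest as a group, and all 4 groups overlapped. With vehicle, Rgs12 differed between genotypes by -0.29 (SE 0.16, 95% interval -0.64 to 0.05, limma adjusted p 1.00). Its genotype by IMN interaction was 0.41 (SE 0.24, 95% interval -0.07 to 0.90, limma adjusted p 1.00), the largest estimate of the 9 in that comparison. Without WT vehicle replicate 1, which had the lowest Rgs12 value of its group (14.4 TPM), the genotype difference with vehicle was -0.37 and the unadjusted p 0.0324, and the interaction was 0.49 with an unadjusted p of 0.0461, both by limma. The smallest adjusted p of the 9 genes in these fits were 0.741 and 0.993 by limma. Of all genes, 6.61% and 4.1% had an unadjusted p under 0.05 in them, beside 3.75% and 3.2% with all libraries.

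Rgs14 ranged from 11.2 to 47.5 TPM over all libraries, with group means of 33.9 TPM in WT vehicle, 29.6 TPM in Brd1+/- vehicle, 29.5 TPM in WT IMN and 28.0 TPM in Brd1+/- IMN mice. WT vehicle replicate 1 was at 15.5 TPM while the rest of its group was at 27.5 to 47.5 TPM, and Brd1+/- vehicle replicate 6 was at 39.3 TPM while the rest of its group was at 19.9 to 33.8 TPM. The genotype difference with vehicle was -0.14 (SE 0.18), and without both libraries it was -0.34 (SE 0.13), with an unadjusted p of 0.0213 and an adjusted p of 0.723 by limma. Rgs10, the shortest of the 3 and known from microglia as well as neurons, had group means between 27.3 and 30.9 TPM. Its highest value, 52.8 TPM, was that of WT vehicle replicate 1.

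**Figure D2:**
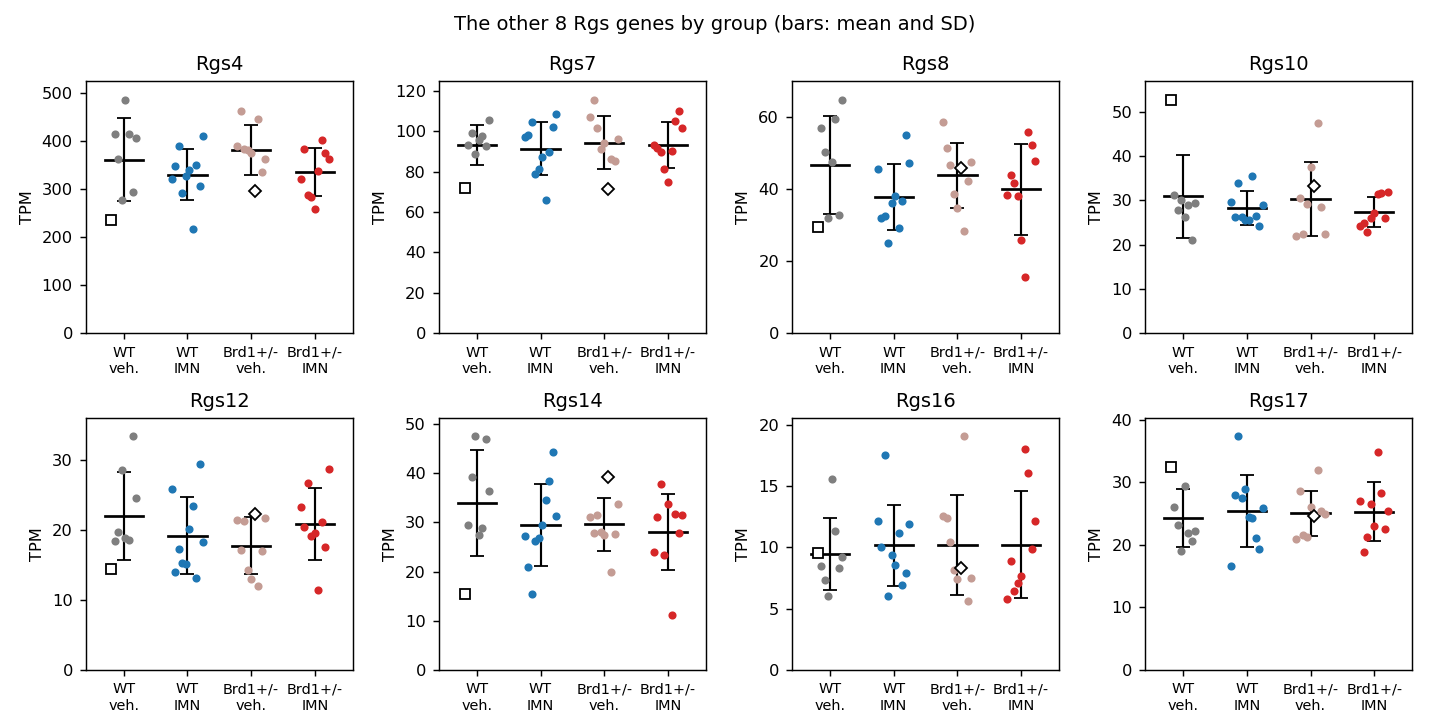
TPM of the other 8 Rgs genes in each library by group, with bars for the mean and SD and each vertical axis starting at 0; the open square is WT vehicle replicate 1 and the open diamond Brd1+/- vehicle replicate 6. The 4 groups overlap for all 8 genes, and the square is the highest Rgs10 value of all libraries at 52.8 TPM.

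Outside IMN over both genotypes, 0 of the 9 genes had an adjusted p under 0.05 by limma, against 0% of all genes for genotype with vehicle, 0% for genotype under IMN, 0.00782% for IMN in Brd1+/- mice, 0% for IMN in WT mice, 0.00391% for genotype over both treatments and 0% for the interaction. The fits for genotype with vehicle and under IMN also missed Brd1, the deleted gene. A count of 0 in them therefore does not show that genotype had no effect. At an unadjusted p under 0.05 the count was 1 of 9 (Rgs2) for IMN over both genotypes (9.38% of all genes). It was also 1 of 9 (Rgs2) for IMN in WT mice (6.6%). It was 0 of 9 for genotype with vehicle (3.75% of all genes), genotype under IMN (3.23%), IMN in Brd1+/- mice (5.52%), genotype over both treatments (3.62%) and the interaction (3.2%). The median log2 fold change of the 9 with IMN over both genotypes was -0.11, beside -0.0023 over all genes tested. In WT mice it was -0.11 beside -0.014, and in Brd1+/- mice -0.12 beside 0.0082. Without Rgs2, the medians of the other 8 were -0.065 over both genotypes, -0.10 in WT mice and -0.066 in Brd1+/- mice. For the 9 other RGS genes tested they were -0.040, 0.081 and -0.027. The medians of the 9 share control libraries and describe these 9 genes only. For genotype with vehicle the median was -0.024 beside -0.018, for genotype under IMN 0.024 beside 0.0052, for genotype over both treatments 0.012 beside -0.0050 and for the interaction 0.015 beside 0.024.

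**Figure D3:**
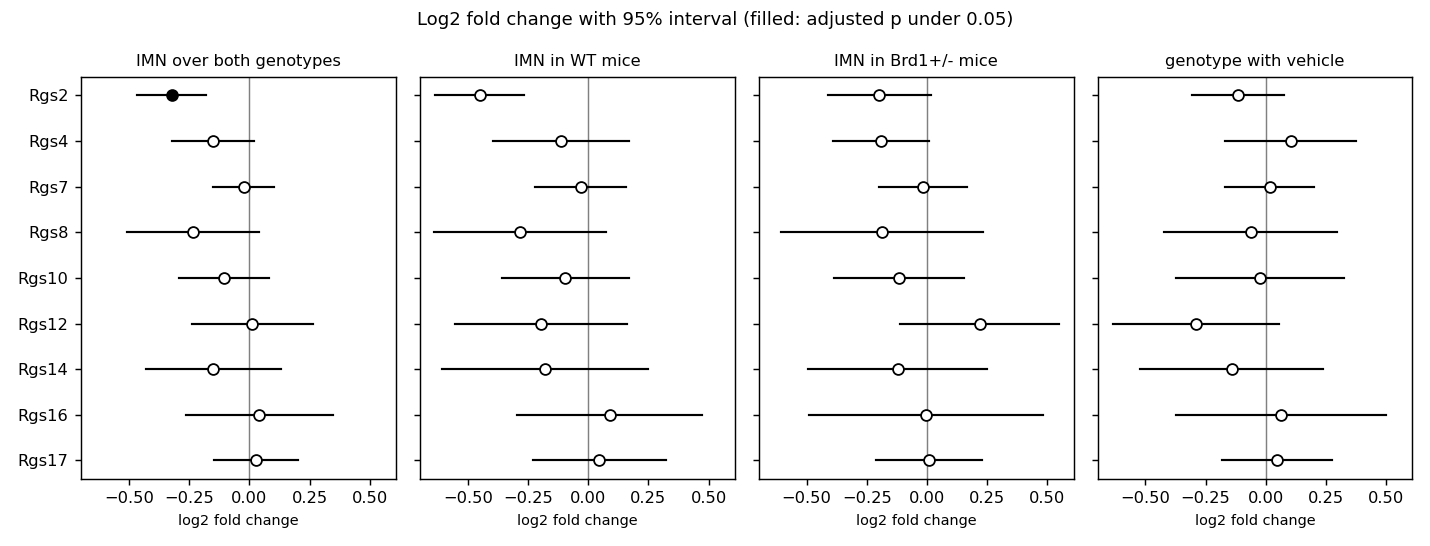
Log2 fold changes on log2(TPM + 0.5) with 95% intervals for the 9 genes in 4 comparisons, where a filled point has an adjusted p under 0.05. Rgs2 with IMN over both genotypes, at -0.32, is the 1 filled point, and of the other intervals all but that of Rgs2 in WT mice include 0.

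The genes that work with RGS proteins were read from lists of 12 other RGS genes, 9 partners, 13 alpha subunits, 14 beta and gamma subunits and 17 effectors. Of these 65 genes 61 were tested, and 0 had an adjusted p under 0.05 by limma in any comparison. None of the 9 tested other RGS genes had an unadjusted p under 0.05 in any of the 7 comparisons. Of all genes, 3.2% to 9.38% passed it per comparison, so 0 of 9 is no result about these genes. With IMN over both genotypes 7 of 61 genes had an unadjusted p under 0.05 (11.5%, beside 9.38% of all genes), 1 higher and 6 lower. A share near that of all genes is no result about these lists, and the values are given only as a description. They were 0.18 for the adenylyl cyclase Adcy1, -0.49 for Adcy4, -0.12 for the potassium channel subunit Kcnj9, -0.12 for the alpha subunit Gnao1, -0.17 for the alpha subunit Gnal, -0.13 for the gamma subunit Gng3 and -0.20 for Gng5. In WT mice 4 of 61 did (6.56%, beside 6.6% of all genes). Kcnj9 was at -0.21, Adcy4 at -0.69 and Gnao1 at -0.16, and Ric8b, a chaperone and exchange factor for alpha subunits, was at 0.32. In Brd1+/- mice the 1 such gene (1.64%, beside 5.52% of all genes) was the channel subunit Kcnj3 at 0.28. For genotype with vehicle 2 of 61 did (3.28%, beside 3.75% of all genes), Ric8b at 0.36 and the alpha subunit Gnaz at -0.13. For genotype under IMN the 1 such gene (1.64%, beside 3.23% of all genes) was phospholipase Plcb4 at -0.37. For the interaction 2 of 61 did (3.28%, beside 3.2% of all genes), Ric8b at -0.43 and the alpha subunit Gna14 at -0.21. Gna14 was nearly absent (mean 0.040 TPM, highest 0.154 TPM), so that its value is set by the pseudocount. For genotype over both treatments no gene of the lists passed (0%, beside 3.62% of all genes). All of these are log2 fold changes whose adjusted p was above 0.05.

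Some of the 9 genes varied with each other from punch to punch within the groups and others did not. After each group's mean was subtracted, the median Pearson r of their 36 pairs across the 36 libraries was 0.016, with 7 pairs over 0.5 and 5 under -0.5 (6 and 5 without both libraries that stood apart). These are descriptions of libraries that share tissue, scaling and dissection, and the share over all gene pairs was not computed. Rgs2 and Rgs14 had r = 0.77, Rgs12 and Rgs14 0.71, and Rgs2 and Rgs12 0.60, and without both libraries these were 0.75, 0.67 and 0.56. Rgs17 ran against all 3, with r = -0.75 for Rgs14, -0.64 for Rgs2 and -0.60 for Rgs12 (-0.73, -0.62 and -0.57 without both libraries). Rgs10 ran against Rgs2 with r = -0.62, and -0.63 without them. Rgs4 and Rgs7 had r = 0.77, and 0.70 without both libraries.

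Cell type and activity lists were then set beside each gene over the 36 libraries, as the mean log2(TPM + 0.5) of each list after subtraction of the group means. Over 72 relations (9 genes and 8 lists), permutation p-values came from 100000 two-sided draws within the groups and were adjusted by Benjamini-Hochberg. Of the 72 relations, 34 had an adjusted p under 0.05, and the strongest are given below. The share of all genes related to the same lists was not computed. Nothing is therefore read about the 9 genes from these counts, in all or per list. For the oligodendrocyte list 8 of 9 genes had an adjusted p under 0.05, 6 negative and 2 positive. Rgs8 ran against the oligodendrocyte list, with r = -0.72 and rho = -0.74 (both with permutation p 1e-05, the smallest these draws can give, and adjusted p 0.00036 for r), and r = -0.70 without the 2 libraries farthest from the median of the list. Rgs7 had r = -0.68 and rho = -0.59 (permutation p 2e-05 and 0.00041, adjusted p 0.00036 for r) with the same list, and r = -0.57 without the 2 farthest. Rgs2 had r = -0.60 and rho = -0.56 (permutation p 0.00029 and 0.00099, adjusted p 0.00216 for r), and r = -0.57 without them. Rgs17 went the other way, with r = 0.60 and rho = 0.59 (permutation p 0.0004 and 0.00046, adjusted p 0.00221 for r), and r = 0.60 without them. Without both libraries that stood apart, r was -0.73 for Rgs8, -0.60 for Rgs7, -0.64 for Rgs2 and 0.56 for Rgs17.

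With the interneuron list (7 genes such as Gad1, Pvalb and Sst) 5 of 9 genes passed, 2 positive and 3 negative, and Rgs7 and Rgs8 were not among them. Rgs17 had r = 0.70 and rho = 0.73 (permutation p 2e-05 and 1e-05, adjusted p 0.00036 for r). Rgs14 had r = -0.68 and rho = -0.69 (permutation p 4e-05 and 1e-05, adjusted p 0.00048 for r). Rgs2 had r = -0.66 and rho = -0.66 (permutation p 4e-05 and 7e-05, adjusted p 0.00048 for r). Rgs12 had r = -0.63 and rho = -0.64 (permutation p 9e-05 and 0.00012, adjusted p 0.00081 for r). Without the 2 libraries farthest from the list's median these r were 0.68, -0.69, -0.64 and -0.61, and without both libraries that stood apart 0.67, -0.66, -0.66 and -0.62. With the microglia list 5 of 9 genes passed, 4 positive and 1 negative. The largest were r = -0.75 and rho = -0.74 for Rgs17 (permutation p 1e-05 for both, adjusted p 0.00036 for r) and r = 0.69 and rho = 0.61 for Rgs14 (permutation p 7e-05 and 0.00038, adjusted p 0.00072 for r), with r = -0.68 and 0.52 without the 2 farthest and -0.73 and 0.68 without both libraries that stood apart.

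With the immediate-early list 7 of 9 genes passed, 5 positive and 2 negative. Rgs14 had r = 0.66 and rho = 0.49 (permutation p 0.00033 and 0.0049, adjusted p 0.00216 for r), Rgs8 r = 0.62 and rho = 0.53 (permutation p 0.0003 and 0.00164, adjusted p 0.00216 for r) and Rgs2 r = 0.48 and rho = 0.46 (permutation p 0.00526 and 0.00752, adjusted p 0.0135 for r). Rgs10 and Rgs17 went the other way, with r = -0.53 and rho = -0.38 for Rgs10 (permutation p 0.00365 and 0.0268, adjusted p 0.0101 for r) and r = -0.50 and rho = -0.42 for Rgs17 (permutation p 0.00245 and 0.0135, adjusted p 0.00882 for r). Without the 2 libraries farthest from the list's median the r of Rgs14, Rgs8, Rgs2, Rgs10 and Rgs17 were 0.38, 0.42, 0.30, -0.31 and -0.31, so these relations rested in part on those libraries. Without both libraries that stood apart they were 0.60, 0.60, 0.46, -0.30 and -0.43. Rgs16 had r = 0.57 and rho = 0.60 with the astrocyte list (permutation p 0.00043 and 0.00026, adjusted p 0.00221 for r), and r = 0.51 without the 2 farthest, as the astrocyte list also did with Rgs7 (r = 0.55, rho = 0.61, permutation p 0.00119 and 0.00033, adjusted p 0.00535 for r, and r = 0.51 without the 2 farthest). Without both libraries that stood apart these r were 0.59 and 0.54. Rgs4 also passed with the astrocyte list, with r = 0.40 and rho = 0.45 (permutation p 0.0152 and 0.00734, adjusted p 0.0333 for r). Its r was 0.37 without the 2 farthest and 0.34 without both libraries that stood apart.

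Striatal, cortical excitatory and vascular genes gave fewer such relations. With the striatal list Rgs7 had r = -0.46 and rho = -0.27 (permutation p 0.00227 and 0.0845, adjusted p 0.0086 for r), and r = -0.27 without the 2 farthest libraries, so this relation rested on those. Rgs4 had r = -0.36 and rho = -0.28 with the striatal list (permutation p 0.00138 and 0.0698, adjusted p 0.00584 for r). Its r was -0.29 without the 2 farthest and also -0.29 without both libraries that stood apart. With the cortical excitatory list Rgs4 had r = -0.50 and rho = -0.57 (permutation p 0.00162 and 0.00051, adjusted p 0.00648 for r), and r = -0.54 without the 2 farthest. Rgs16 had r = -0.51 and rho = -0.37 with it (permutation p 0.00312 and 0.0345, adjusted p 0.00936 for r), and r = -0.28 without the 2 farthest. Rgs14 went the other way, with r = 0.40 and rho = 0.27 (permutation p 0.0151 and 0.116, adjusted p 0.0333 for r), and r = 0.14 without the 2 farthest, so that the relations of Rgs16 and Rgs14 rested on those libraries. With the vascular list Rgs7 had r = 0.56 and rho = 0.58 (permutation p 0.00115 and 0.00065, adjusted p 0.00535 for r), and r = 0.55 without them. Without both libraries that stood apart these r were -0.28 for Rgs7 with the striatal list, -0.45, -0.52 and 0.52 for Rgs4, Rgs16 and Rgs14 with the cortical excitatory list and 0.56 for Rgs7 with the vascular list. The cortical excitatory score is a mean of genes that do not all vary together. Rgs8 had r = 0.05 with that list but 0.86 with Camk2a, which is on it.

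**Figure D4:**
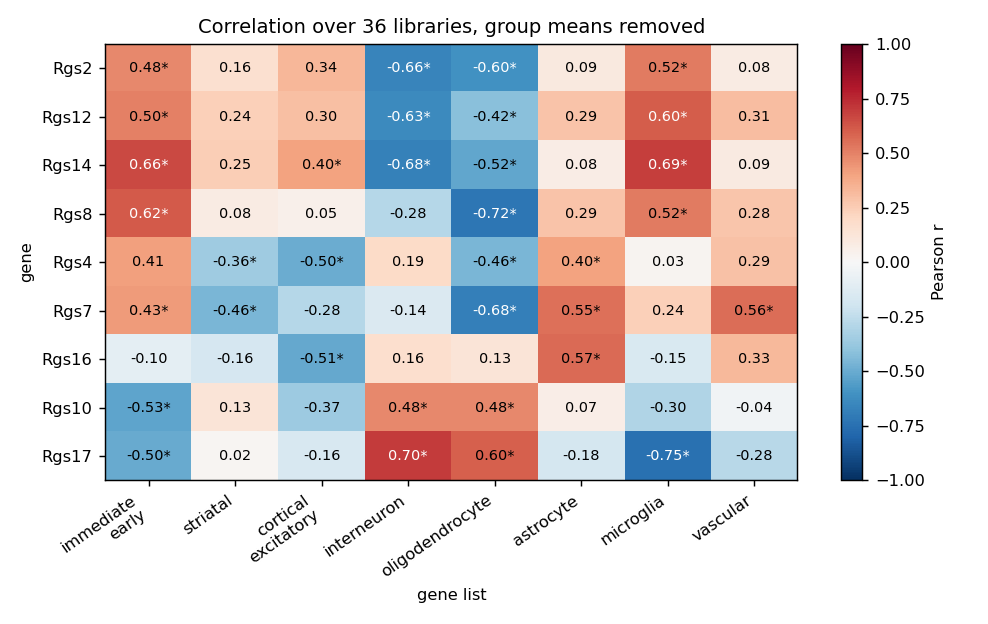
Pearson r of each of the 9 genes (rows) with each of 8 gene lists (columns) over 36 libraries after subtraction of group means, where colour runs from -1 to 1 and a star marks a permutation p adjusted over the 72 relations under 0.05. Rgs2, Rgs8, Rgs12 and Rgs14 have r of the same sign for each list, though many of these r are small and without a star. Rgs17 has the opposite sign for all lists but the striatal one. Its r is lowest for the microglia list, at -0.75, and highest for the interneuron list, at 0.70.

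Among 17704 other genes whose mean reached 1 TPM, the genes most like each member from punch to punch were taken as the 3 with the highest Pearson r over the 36 libraries, group means removed. For Rgs2 these were D430036J16Rik (r = 0.87), Grp, which encodes gastrin-releasing peptide (0.87), and Mapk3, an extracellular signal-regulated kinase (0.85). For Rgs4 they were Gm15721 (0.88), Pdzrn3 (0.87) and Dnajc21 (0.85), and for Rgs7 the orphan receptor Gpr26 (0.86), the neuronal transcription factor Neurod1 (0.83) and Gm28800 (0.83). Rgs8 was closest to Kctd1 (0.87), Rbm24 (0.86) and the kinase subunit Camk2a (0.86). Rgs14 had the closest companions of the 9, Fads3 (0.92), Klf16 (0.92) and Krt77 (0.92). Rgs12 was closest to Rnf10 (0.82), Jph4 (0.80) and Sh3bp4 (0.80), and Rgs17 to Epb41l3 (0.89), Luzp1 (0.87) and Ccng1 (0.86). Rgs10 was closest to Nat8f1 (0.78), Rnd2 (0.77) and Zbtb7b (0.77), and Rgs16 to Nrep (0.77), Ddit4l (0.75) and Bglap3 (0.73). Without both libraries that stood apart, the r of Rgs10 with its 3 genes were 0.70, 0.72 and 0.70, and those of Rgs2 were 0.88, 0.87 and 0.84.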

How the data were processed

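RNA was isolated from punches of the right aCC of 36 mice and sequenced by the authors as single-end 50-base reads on a BGISEQ-500. Per the labels and the study's methods, reads were trimmed and checked with Trimmomatic and FastQC, aligned to GRCm38 with HISAT2 2.1.0 and quantified with StringTie 1.3.4. The deposited table holds the authors' TPM values for 52636 genes, 52403 of which could be given a symbol. TPM keeps no depth, so no count model was used and no counting interval can be given.

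Groups were taken from the labels. For genes at or above 0.1 TPM in at least 8 libraries (25572 genes), log2(TPM + 0.5) was fitted with limma 3.58.1 (R 4.3.3, trended empirical Bayes) and p-values were adjusted by Benjamini-Hochberg over all genes. Pairwise comparisons used their 2 groups, and effects over both genotypes or treatments and the interaction used all 36 libraries. The fit was tested on simulated data, drawn for each gene on its own. Such data hold no differences in tissue content shared by many genes, so the test cannot speak to those. No library was identical to another. The 9 genes, the gene lists, the motifs and the alternatives were chosen with earlier results of these data known. All 9 genes were counted in each comparison, but their log2 fold changes are not all printed. Genes of the pathway lists are named if their adjusted p was under 0.05. Also named are up to 3 per list and comparison with the smallest unadjusted p under 0.05. Sequences are RefSeq windows on GRCm38, and Rgs14 is named only. Positions of genes are from GENCODE on GRCm38. Alternatives were other pseudocounts (0.1 and 1), no filter on low values or a stricter one (mean of 1 TPM or more), scaling by median ratios, quantiles or without mitochondrial genes, array weights, the replicate block, 1 fit of all libraries, leaving out the libraries that stood apart and, added after seeing the data, leaving out the 3 libraries highest in oligodendrocyte genes.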

Additional observations from a re-analysis of the deposited data

Results flagged for a closer look

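In a test of the highest and lowest library of each gene in each group (Dixon's criterion at 95%, 36 groups of values), 2 values stood off. Rgs10 in WT vehicle replicate 1 was 52.8 TPM, while the other 7 libraries of that group were between 21.1 and 31.3 TPM. Rgs16 in WT IMN replicate 3 was 17.6 TPM, while the other 9 were between 6.02 and 12.2 TPM. Chance alone gives such a value in about 1 of 20 groups. WT vehicle replicate 1 also ranked 3rd of 36 for the oligodendrocyte list, 2nd for the interneuron list and 35th for the microglia and immediate-early lists, and the part of this in its Rgs10 value was not tested.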

How the results depend on the processing

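Of 756 log2 fold changes of the 9 genes under 10 to 13 alternatives per comparison, 722 kept their direction and their side of adjusted p 0.05 by limma. Rgs2 with IMN over both genotypes kept its call under 12 of 13 alternatives (adjusted p 0.00981 to 0.0456). The exception was the replicate block, a paired fit on the replicate number, with a log2 fold change of -0.33 and an adjusted p of 0.0755, so that 0 of 9 genes passed. The same numbers do not pair the mice by any label: same-numbered libraries had mean correlations of their deviations between -0.067 and 0.053 over the 6 pairs of groups, and at most 1 library was closest to its own number. In WT mice the block gave -0.50 for Rgs2 (adjusted p 0.520). Over all genes, the 70 calls for IMN over both genotypes became 37 with the block, 191 with array weights, 170 without WT vehicle replicate 1 and 164 without both libraries, and the 0 calls for IMN in WT mice became 32 without WT vehicle replicate 1. Read depth of each library is not known, as the study gives only a minimum number of reads per sample.

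Counts of the 9 genes at an unadjusted p under 0.05 changed as follows, and the share of all genes past it moved too and is given in each case, so nothing is read from these counts about the 9 genes. For genotype with vehicle the count went from 0 to between 0 and 1 with 1 library left out and to 2 without both (all genes 3.75%, then 6.61% without WT vehicle replicate 1, 3.86% without Brd1+/- vehicle replicate 6 and 6.77% without both). For IMN in Brd1+/- mice it went from 0 to 1 without Brd1+/- vehicle replicate 6, with median-ratio scaling (Rgs2), with the block (Rgs4) with all 36 libraries in 1 fit (Rgs2) and without the 3 libraries highest in oligodendrocyte genes, an alternative added after seeing the data (Rgs12); all genes went from 5.52% to between 5.13% and 5.98%. For IMN in WT mice it went from 1 to 2 without WT vehicle replicate 1, with array weights and with the block, where Rgs8 joined Rgs2, and without that library the count at adjusted p 0.05 went from 0 to 1 (all genes from 6.6% to 10.6%, 10.6% and 7.65%). For IMN over both genotypes it went from 1 to 2 with either library left out, without both and without the 3 (Rgs4 joined), and to 3 with array weights (Rgs4 and Rgs8), while all genes went from 9.38% to 11.3%, 9.45%, 11.6%, 10.2% and 12.1%. For the interaction it went from 0 to between 0 and 2 with 1 library left out and to 2 with array weights and without both (Rgs2 and Rgs12), while all genes went from 3.2% to between 3.25% and 4.95%. The cause was not tested.

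The direction reversed for 32 values, none of which was called in that comparison and each smaller than 0.1 in size. With array weights, Rgs16 was at -0.040 for genotype with vehicle, 0.014 for IMN in Brd1+/- mice and -0.052 for genotype over both treatments, Rgs17 at -0.067 for genotype under IMN and -0.020 for genotype over both treatments, Rgs8 at 0.00079 for the latter, Rgs12 at -0.0042 for IMN over both genotypes, and the interaction was 0.0036 for Rgs4 and 0.025 for Rgs10. With the block, Rgs10 was at 0.025 for genotype with vehicle and Rgs12 at -0.0082 for IMN over both genotypes. Rgs7 was at 0.0081, 0.0038 and 0.0060 for IMN in Brd1+/- mice, in WT mice and over both with quantile normalization, at 0.0020 for IMN in Brd1+/- mice without mitochondrial genes (Rgs16 0.012), and its interaction was -0.011 with median-ratio scaling. Without both libraries, Rgs10 was at 0.069 for genotype with vehicle and 0.0059 over both treatments, Rgs12 at -0.0023 for IMN over both genotypes and Rgs2 at -0.0018 for genotype over both treatments. Without the 3 libraries highest in oligodendrocyte genes, Rgs14 was at 0.030 and Rgs17 at -0.051 for IMN in Brd1+/- mice and Rgs16 at -0.023 for IMN over both genotypes. With 1 of WT vehicle replicate 1 and Brd1+/- vehicle replicate 6 left out, the ranges for genotype with vehicle were -0.036 to 0.065 for Rgs7 and -0.046 to 0.091 for Rgs10. They were 0.019 for Rgs10 with IMN in WT mice, -0.017 to 0.028 for Rgs12 with IMN over both genotypes and -0.045 to 0.017 for Rgs10 for genotype over both treatments. For the interaction they were -0.12 to 0.0049 for Rgs4, -0.033 to 0.067 for Rgs7 and -0.14 to 0.0018 for Rgs10.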
